A study of Mus musculus with 8 samples.

Results

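The nuclear-encoded genes of the mitochondrial respiratory chain were compared across sorted bone marrow progenitors of the mouse. Members were chosen by name: every gene of the deposited tables whose symbol begins with Nduf, Uqcr, Cox4, Cox5, Cox6, Cox7, Cox8 or Atp5, and the genes Sdha, Sdhb, Sdhc and Sdhd. This gave 92 of 24411 genes. By known role, 36 are subunits of complex I, 4 of complex II, 8 of complex III, 20 of complex IV and 15 of complex V, 7 are Ndufaf assembly genes of complex I, and 2 (Atp5s and Atp5sl) carry the Atp5 name without being subunits. Ndufa4 and Ndufa4l2 were placed with complex IV. The subunits encoded by mitochondrial DNA were not analysed here.

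The respiratory chain sits in the inner mitochondrial membrane. Complex I takes electrons from NADH and complex II takes them from succinate. Both pass them to complex III, and cytochrome c carries them on to complex IV, which reduces oxygen. Complexes I, III and IV pump protons across the membrane as they work, and complex V, the ATP synthase, makes ATP as the protons flow back. Several complex IV subunits exist as pairs of genes, one used by most tissues and one used mainly by a few, such as heart, skeletal muscle, lung or testis. Blood stem cells are known for relying little on respiration, which rises in importance as progenitors divide and mature.

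Bulk RNA sequencing covered 4 sorted populations with 2 libraries each, 8 in all. The cells were primary marrow cells of wild-type mice of the C57BL/6 strain, whose ages the labels do not state. All cells were KIT+ CD16/32-, the gate of common myeloid progenitors, which give rise to myeloid, erythroid and megakaryocyte cells. The CD41/CD9-negative population was CD34dim CD41- CD9-. The CD34bright population was CD34bright CD41+ CD9+. The CD48bright and CD48dim populations were both CD34dim CD41+ CD9+ and were parted by their CD48 level. CD41 (gene Itga2b) and CD9 are surface proteins of megakaryocyte-primed and stem-like cells, and CD48 is low on stem cells and high on many of their progeny.

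The libraries held 7237587 to 20632005 expected counts. Levels are given as CPM, the count scaled to a common library total. The gate genes followed the labels: Itga2b was at 2.83 and 2.18 CPM in the CD41/CD9-negative libraries, against 64.2 to 155 CPM in the other 6, and Cd48 was at 35.8 and 16.9 CPM in CD48dim, against 156 to 246 CPM elsewhere. CD48dim replicate 2 stood apart. It had the lowest summed level of cytosolic ribosomal proteins, 23839.8 CPM against 51194 to 104362 CPM in the other 7 libraries, and the highest level of the nuclear RNA Malat1, 38921 CPM against 5001 to 14857 CPM. CD48dim replicate 1 had the highest sum of 10 mature neutrophil markers, 4249 CPM against 45.4 to 712 CPM in the others, and of 9 red cell markers, 352 CPM against 9.22 to 60.6 CPM. Replicate 2 had a lower sum of the members and of the ribosomal proteins than replicate 1 in all 4 populations, and a higher level of Malat1. In bulk RNA, fewer cells of a type and less RNA per cell cannot be told apart.

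A single member of the chain, Cox6a2, was called as different among the 4 populations. The test was edgeR's quasi-likelihood F-test, run over all 13177 genes that passed a filter on low counts. A gene was called where its Benjamini-Hochberg adjusted p was under 0.05. Of the 92 members, 87 passed that filter. In the test of any difference among the 4 populations, 1 of the 87 was called, against 2.44% of all tested genes. The adjusted p of Cox6a2 in that test was 0.0114. Unadjusted, 4 members had p below 0.05 (Cox6a2, Atp5g1, Atp5g2 and Atp5c1), against 16.8% of all tested genes. With the replicate number as a block in the model, 2 members were called, against 5.80% of all tested genes. They were Cox6a2 and Atp5g1 (edgeR adjusted p 0.0354). Over the 6 pairs of populations, 2 of the member tests were called, both for Cox6a2, against 1.01% of the tests of all genes. With the replicate block 8 were called, and single pairs then called 0% to 7.32% of all genes. Atp5b, Atp5c1, Atp5g1 and Atp5g2 were called in CD34bright against CD48dim. Atp5c1 and Cox6a2 were called in CD41/CD9-negative cells against CD48dim. Cox6a2 was also called in CD48bright against CD48dim and in CD41/CD9-negative cells against CD34bright. Single libraries moved the test of any difference, for the members and for all genes. Without CD41/CD9-negative replicate 1 it called 0 members and 0.226% of all genes, and without replicate 2 of that population 0 members and 0.339%. Without CD48dim replicate 1 it called 36 members and 24.7% of all genes, and without CD48dim replicate 2 it called 2 members and 9.11%.

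Cox6a2 encodes one of the paired forms of subunit VIa of complex IV, the form known from heart and skeletal muscle, while Cox6a1 encodes the form of most other tissues. The gene lies on chr7:128205435-128206366 in RefSeq (GRCm38.p6). Cox6a2 had 460 and 337 counts in the CD41/CD9-negative libraries, 23 and 5 in CD34bright, 36 and 39 in CD48bright, and 0 in both CD48dim libraries. Its level was 36.2 and 27.2 CPM in CD41/CD9-negative cells, 1.19 and 0.363 CPM in CD34bright, 1.87 and 3.56 CPM in CD48bright, and 0 CPM in CD48dim. Both CD41/CD9-negative libraries lay above the other 6, with no overlap, and the next highest library was CD48bright replicate 2. The mean was 31.7 ± 6.36 CPM in CD41/CD9-negative cells, 0.770 ± 0.587 CPM in CD34bright and 2.72 ± 1.20 CPM in CD48bright (SD, n = 2 each). In CD48dim, 0 counts over both libraries allow up to 0.143 CPM, the level of 3 counts over the group. Against that limit Cox6a2 was at least 221-fold higher in CD41/CD9-negative cells, at least 5.37-fold higher in CD34bright and at least 18.9-fold higher in CD48bright. Limits and intervals of this kind cover counting error only.

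In CD41/CD9-negative cells Cox6a2 rose against the mean of the CD34dim CD41+ CD9+ populations, by a log2 fold change of 7.66 ± 0.885 (SE) with an edgeR adjusted p of 0.00533. Since CD48dim had no counts, the size of that fitted change depends on the prior count. The call was lost without CD41/CD9-negative replicate 1, where the log2 fold change was 7.44 and the adjusted p was 0.069. Against CD34bright the log2 fold change was 5.32 ± 0.909 with an edgeR adjusted p of 0.0421, in a comparison that called 0.842% of all genes. That call was lost when a library of CD41/CD9-negative, CD34bright or CD48bright was left out: the log2 fold change was 5.10 and 5.52 without CD41/CD9-negative replicate 1 and 2, 6.44 and 4.69 without CD34bright replicate 1 and 2, and 5.32 without either CD48bright library, with edgeR adjusted p between 0.057 and 0.339. Against CD48dim the edgeR adjusted p was 0.00554, in a comparison that called 4.02% of all genes. Against CD48bright Cox6a2 missed the threshold, with a log2 fold change of 3.55 ± 0.831 and an edgeR adjusted p of 0.194, in a comparison that called 0.212% of all genes. It was called there by DESeq2, in the edgeR fit of only the libraries compared, without the filter on low counts, and without either CD48dim library, at log2 fold changes of 3.54 to 3.57. Cox6a2 passed the filter on low counts through the population where it was high, and it had been singled out with earlier results of these data known.

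Per kilobase, Cox6a2 was a minor part of its subunit. In TPM, the authors' deposited level scaled for length, Cox6a2 made up 16.2% and 18.9% of the sum of Cox6a1 and Cox6a2 in CD41/CD9-negative cells. The share was 0.587% and 0.201% in CD34bright, 0.966% and 3.14% in CD48bright, and 0% in CD48dim. Cox6a1 itself was at 129 and 82.1 CPM in CD41/CD9-negative cells, 139.8 and 123 CPM in CD34bright, 132 and 77.5 CPM in CD48bright, and 121 and 21.3 CPM in CD48dim. The populations overlapped for Cox6a1, and its log2 fold change in CD41/CD9-negative cells against the CD34dim CD41+ CD9+ mean was 0.29 ± 0.561 with an edgeR adjusted p of 0.915. The longest run of identical bases between annotated transcripts of Cox6a1 and Cox6a2 is 12 bases.

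**Figure D1:**
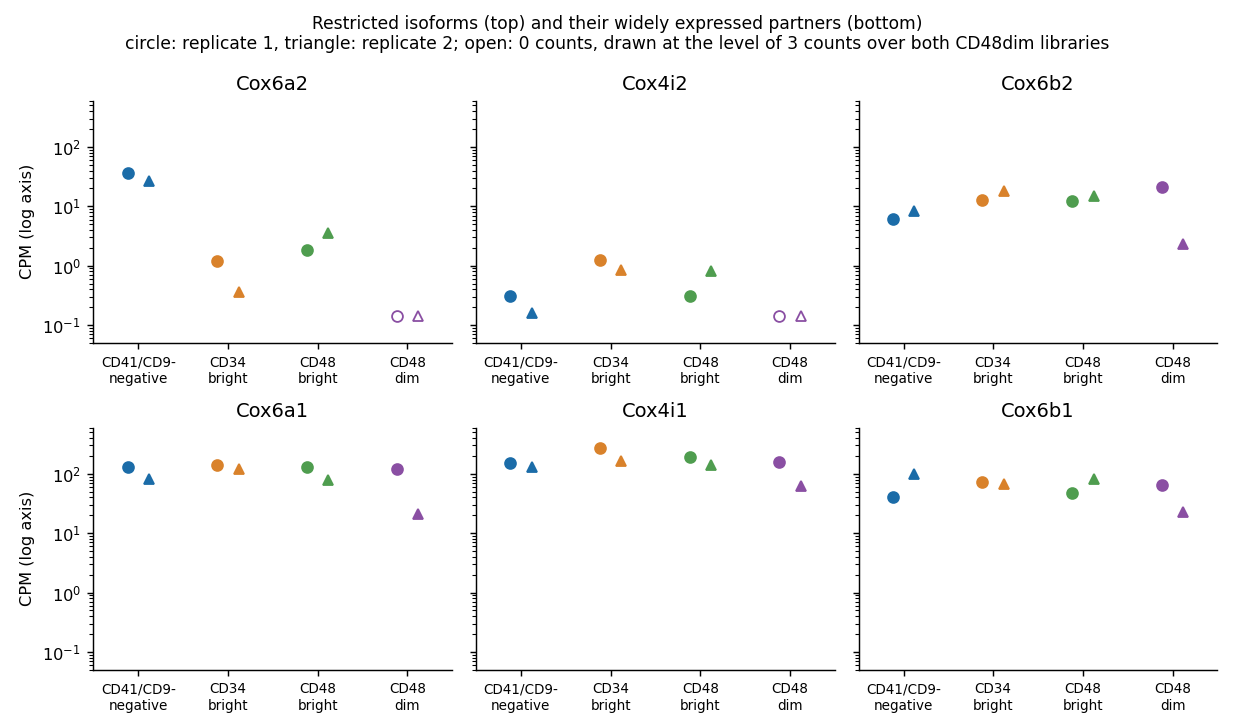
CPM on a log axis by sorted population for the restricted complex IV isoforms (top row) and their widely expressed partners (bottom row). Circles are replicate 1 and triangles replicate 2, and open symbols are libraries with 0 counts, drawn at 0.143 CPM. Cox6a2 stands at 36.2 and 27.2 CPM in CD41/CD9-negative cells and at 3.56 CPM or less in the other 6 libraries, while Cox6a1 overlaps between populations.

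The libraries carry no strand information, and the last 70 bases of Cox6a2 (chr7:128205435-128205504) overlap the end of Itgad, an integrin gene on the other strand. Itgad had 212 counts in all libraries against 900 for Cox6a2. It was at 4.72 and 7.18 CPM in CD41/CD9-negative cells, 0.155 and 0.284 CPM in CD34bright, 2.29 and 1.10 CPM in CD48bright, and 0 CPM in CD48dim. Itgad thus moved with Cox6a2, and how the reads of the shared bases were divided was not tested. Of 8 muscle and heart markers, 4 (Myh1, Myh4, Myl1 and Actc1) were at 0 in all libraries, and the summed level of the list was 0 to 0.923 CPM.

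The summed level of 10 markers of plasmacytoid dendritic cells was, like Cox6a2, highest in both CD41/CD9-negative libraries. The sum over these 10 genes was 3773 and 3456 CPM in CD41/CD9-negative cells, 556 and 611 CPM in CD34bright, 661 and 901 CPM in CD48bright, and 477 and 661 CPM in CD48dim. Among them Siglech, a surface lectin of these cells, was at 199 and 151 CPM in CD41/CD9-negative cells, 1.34 and 6.82 CPM in CD34bright, 9.30 and 25.03 CPM in CD48bright, and 0 CPM in both CD48dim libraries. Not all of the 10 followed Cox6a2 outside CD41/CD9-negative cells. Runx2 was at 307 and 404 CPM in CD48dim, against 246 and 290 CPM in CD34bright. Tcf4 was at 105 and 245 CPM in CD48dim, against 121 and 146 CPM in CD34bright. Klk1 was at 0.156 CPM or less in all libraries. The 6 B cell markers summed to 99.95 and 66.6 CPM in CD41/CD9-negative cells, against 11.5 to 53.5 CPM in the other 6 libraries. The part of such cells in the level of Cox6a2 was not tested.

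The 5 genes whose level followed Cox6a2 most closely over the 8 libraries were Rbm47, an RNA-binding protein, Scpep1, a serine carboxypeptidase, Ccr9, a chemokine receptor, Ddx4, an RNA helicase known from germ cells, and Fcrl1, an Fc receptor-like protein of B cells. Their Pearson correlation with Cox6a2 on log2(CPM + 1) was 0.991 for Rbm47, 0.988 for Scpep1, 0.984 for Ccr9, 0.984 for Ddx4 and 0.983 for Fcrl1. The 8 points are 4 populations with 2 libraries each, so the values describe a shared difference between CD41/CD9-negative cells and the rest. Ccr9 is also on the list of plasmacytoid dendritic markers. It was at 101 and 67.4 CPM in CD41/CD9-negative cells, and at 1.99 to 10.5 CPM in the other 6 libraries.

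The other restricted forms were low or absent. Cox4i2, the form of subunit IV known from lung, had 4 and 2 counts in CD41/CD9-negative cells, 24 and 12 in CD34bright, 6 and 9 in CD48bright, and 0 in both CD48dim libraries. Its mean level of 1.04 CPM in CD34bright was at least 7.28-fold higher, and its mean of 0.567 CPM in CD48bright at least 3.95-fold higher, than the limit of 3 counts in CD48dim. Neither difference passed: the edgeR adjusted p was 0.196 for CD34bright against CD48dim and 0.325 for CD48bright against CD48dim. CD34bright against CD48dim called 0.577% of all genes. Cox4i2 had at most 0.557% of the summed TPM of Cox4i1 and Cox4i2, and it overlaps Bcl2l1, which had 827 counts against 57. Cox4i1, the common form, was at 155 and 131 CPM in CD41/CD9-negative cells, 272 and 167 CPM in CD34bright, 191 and 142 CPM in CD48bright, and 159 and 62.6 CPM in CD48dim.

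Cox6b2, the form of subunit VIb known from testis, was present in all populations. It was at 6.21 and 8.23 CPM in CD41/CD9-negative cells, 12.7 and 18.2 CPM in CD34bright, 12.1 and 14.8 CPM in CD48bright, and 21.4 and 2.33 CPM in CD48dim. It made up 7.64% to 23.6% of the summed TPM of Cox6b1 and Cox6b2. Both CD41/CD9-negative libraries lay below those of CD34bright and CD48bright, but the CD48dim libraries lay on either side, and the log2 fold change of CD41/CD9-negative cells against the CD34dim CD41+ CD9+ mean was -0.81 ± 0.768 with an edgeR adjusted p of 0.764. Cox6b1 was at 40.7 and 100.4 CPM in CD41/CD9-negative cells, 71.9 and 68.0 CPM in CD34bright, 47.5 and 82.4 CPM in CD48bright, and 65.0 and 23.1 CPM in CD48dim.

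The 5 members that did not pass the filter were each the less widely used form of a pair. Cox7b2 and Cox8b had 0 counts in all 8 libraries. Cox8c had 1 count, in CD48bright replicate 2, and Ndufa4l2 had 1 count, in CD48bright replicate 1. Cox7a1, the muscle form of subunit VIIa, had 1 and 3 counts in CD41/CD9-negative cells, 3 and 2 in CD34bright, 1 and 0 in CD48bright, and 8 and 0 in CD48dim. Their common partners were read in every library: Cox7b at 52.7 to 124 CPM, Cox8a at 24.7 to 77.7 CPM, Cox7a2 at 4.94 to 67.4 CPM and Ndufa4 at 4.81 to 185 CPM. Cox7a2 overlaps Tmem30a, which had 12429 counts against 4886. In each of these 4 the lowest library was CD48dim replicate 2, and the highest was CD34bright replicate 1. Cox7c, the complex IV gene of the highest mean TPM, ran from 51.5 to 112 CPM, and Cox6c from 15.0 to 58.2 CPM.

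Complex V gave the largest part of the members' RNA, 44.2% to 56.2% of their summed CPM in every library. Atp5b, the catalytic beta subunit, had the highest TPM of all members. It was at 1617 and 908 CPM in CD41/CD9-negative cells, 2522 and 1926 CPM in CD34bright, 2169 and 1090.5 CPM in CD48bright, and 1268 and 552 CPM in CD48dim. CD34bright replicate 1 was highest and CD48dim replicate 2 lowest, and the populations overlapped. Its log2 fold change was 0.87 ± 0.442 in CD34bright against the CD34dim CD41+ CD9+ mean, with an edgeR adjusted p of 0.63. Against CD48dim alone it was 1.29 ± 0.533, with an edgeR adjusted p of 0.237. With the replicate block that difference was called, in a comparison that then called 5.18% of all genes. Atp5h, a peripheral stalk subunit, ran against the rest of the complex in CD48dim, at 96.9 and 215 CPM, while it was at 95.7 and 75.2 CPM in CD41/CD9-negative cells, 155 and 82.0 CPM in CD34bright, and 111 and 87.6 CPM in CD48bright. Its log2 fold change in CD48bright against CD48dim was -0.65 ± 0.453, with an edgeR adjusted p of 0.543, and it was -1.10 without CD48dim replicate 1 and 0.04 without CD48dim replicate 2. Atp5c1 was singled out after its values were seen, since both CD48dim libraries lay below all the others in CPM. Its log2 fold change in CD34bright against CD48dim was 1.24 ± 0.328, with an edgeR adjusted p of 0.108. It was called there with the replicate block (edgeR adjusted p 0.0274), without the filter on low counts and by DESeq2. These fits called 5.18%, 5.51% and 9.77% of all genes there. DESeq2 also called Atp5c1 in the test of any difference, against 13.0% of all genes. Of the genes that carry the Atp5 name without being subunits, Atp5s ran from 10.7 to 26.6 CPM and Atp5sl from 17.9 to 36.0 CPM, with CD41/CD9-negative replicate 2 the highest for Atp5sl.

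Atp5g1, Atp5g2 and Atp5g3 encode the same mature subunit c, the membrane ring of the ATP synthase, with different import sequences. Atp5g1 was at 139 and 103 CPM in CD41/CD9-negative cells, 259 and 293 CPM in CD34bright, 163 and 152 CPM in CD48bright, and 118 and 89.7 CPM in CD48dim. Both CD34bright libraries lay above the other 6. The log2 fold change of CD34bright against the CD34dim CD41+ CD9+ mean was 1.11 ± 0.262, with an edgeR adjusted p of 0.295 and an unadjusted p of 0.00198. Against CD48dim alone it was 1.41 ± 0.318 with an edgeR adjusted p of 0.0775, and with the replicate block that difference was called (edgeR adjusted p 0.0258). DESeq2 called the difference from the CD34dim CD41+ CD9+ mean, in a comparison where it called 1.83% of all genes. Without CD48dim replicate 1 the edgeR log2 fold change of that difference was 1.22.

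Atp5g2 was at 163 and 249 CPM in CD41/CD9-negative cells, 321 and 263 CPM in CD34bright, 145 and 297 CPM in CD48bright, and 80.9 and 38.3 CPM in CD48dim. Both CD48dim libraries lay below the other 6, with no overlap. The log2 fold change was 1.88 ± 0.481 in CD48bright against CD48dim, with an unadjusted p of 0.00319 and an edgeR adjusted p of 0.152. It was 1.78 ± 0.479 in CD41/CD9-negative cells against CD48dim (edgeR adjusted p 0.0785) and 2.29 ± 0.488 in CD34bright against CD48dim (edgeR adjusted p 0.072). DESeq2, and edgeR without the filter on low counts, called Atp5g2 in all 3, and edgeR with the replicate block called the last (adjusted p 0.0294). In these comparisons DESeq2 called 5.76% to 11.7% of all genes and edgeR without the filter 3.18% to 6.44%. The block called 5.18% in the last. Without CD48dim replicate 2 the log2 fold change of CD34bright against CD48dim was 1.86. Without CD48dim replicate 1 the log2 fold changes against CD48dim were 2.54 for CD48bright, 2.44 for CD41/CD9-negative cells and 2.94 for CD34bright. Atp5g3 was at 139 and 123 CPM in CD41/CD9-negative cells, 239.7 and 136 CPM in CD34bright, 211 and 146 CPM in CD48bright, and 183 and 26.1 CPM in CD48dim. For Atp5g3 one CD48dim library was the lowest of all 8 and the other lay within the range of the other 6.

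The mix of the 3 genes per kilobase therefore differed between the libraries of CD48dim. Atp5g2 held 42.7% and 58.0% of their summed TPM in CD41/CD9-negative cells, 45.0% and 44.5% in CD34bright, 32.8% and 55.6% in CD48bright, and 24.98% and 30.4% in CD48dim. Atp5g3 held 48.4% in CD48dim replicate 1 and 17.7% in replicate 2, and Atp5g1 held 26.7% in replicate 1 and 51.9% in replicate 2. The 2 lowest shares of Atp5g2 were those of CD48dim. The longest run of identical bases was 21 between transcripts of Atp5g1 and Atp5g2, 11 between Atp5g1 and Atp5g3, and 12 between Atp5g2 and Atp5g3.

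**Figure D2:**
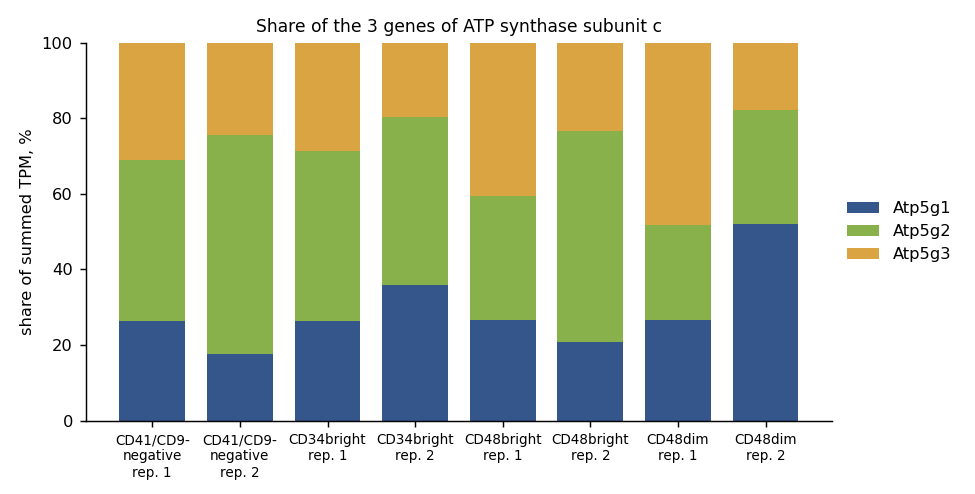
Share of Atp5g1, Atp5g2 and Atp5g3 in their summed TPM, in percent, for each of the 8 libraries. Atp5g2 has 24.98% and 30.4% in the CD48dim libraries, against 32.8% to 58.0% in the other 6, and the CD48dim libraries differ most from each other in Atp5g1 and Atp5g3.

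The windows before the starts of Cox6a1, the widely used partner of Cox6a2, and of Atp5g2, the subunit c gene whose CD48dim libraries lay below the rest, are shown because both hold letters known from the regulation of respiratory chain genes. They are the 250 bases before each start in RefSeq (GRCm38.p6, minus strand, 5′ to 3′). Capitals mark the 8 letters GCGCATGC, searched on both strands, which the factor NRF1 is known to bind and whose 2 strands overlap here, and the 7 letters CCGGAAG of ETS factors, also searched on both strands. NRF1 and the ETS factor GABP are known as activators of respiratory chain genes.
Cox6a1, chr5:115348959-115349208: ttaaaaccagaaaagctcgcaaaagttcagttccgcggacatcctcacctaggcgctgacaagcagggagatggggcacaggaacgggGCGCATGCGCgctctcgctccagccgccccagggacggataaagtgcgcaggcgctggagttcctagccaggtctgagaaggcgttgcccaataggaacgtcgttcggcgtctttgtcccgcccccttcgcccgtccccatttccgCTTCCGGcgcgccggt
Atp5g2, chr15:102671048-102671297: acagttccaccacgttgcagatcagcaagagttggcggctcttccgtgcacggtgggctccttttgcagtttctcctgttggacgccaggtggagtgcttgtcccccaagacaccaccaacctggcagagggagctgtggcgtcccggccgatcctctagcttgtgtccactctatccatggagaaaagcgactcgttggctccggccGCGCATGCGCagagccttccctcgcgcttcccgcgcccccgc
The NRF1 letters stand 162 to 153 bases before the start of Cox6a1 and 42 to 33 bases before that of Atp5g2, and the ETS letters stand 16 to 10 bases before that of Cox6a1. Of the 92 members, 76 matched a window, and Cox6a2 was not among them. The windows of Atp5g1 and Atp5g3 were counted and hold neither the NRF1 nor the ETS letters. Of their 250 bases, 63 for Atp5g1 and 250 for Atp5g3 lie inside the annotated gene. The NRF1 letters were in 9 of the 76 windows (11.8%), against 4.94% of the windows of 10003 tested genes and 2.56% of all 27025 windows. The 9 genes are Atp5g2, Atp5k, Atp5l, Cox6a1, Ndufa11, Ndufa6, Ndufa8, Ndufaf4 and Sdhb. The ETS letters were in 13 (17.1%), against 15.4% of tested genes and 7.83% of all windows, and the letters AAGATGGC of the factor YY1 were in 2 (2.63%), against 2.45% and 1.83%. The general E-box CANNTG was in 50 (65.8%), against 62.1% and 69.3%. Both sets had a median of 15 CpG pairs in the window.

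Complex I holds the most members. With the filter on low counts and all libraries, edgeR called none of its 36 subunits or 7 assembly genes. This held in the test of any difference and in each comparison of populations, and limma-voom called none. Unadjusted, 4 had p below 0.05 in at least 1 comparison (Ndufab1, Ndufc2, Ndufs1 and Ndufs5). Per comparison, 1.99% to 19.5% of all tested genes had such a p. DESeq2 called Ndufc2 in CD34bright against CD48dim, where it called 9.77% of all genes. Ndufa3, a small accessory subunit, had the highest mean TPM of the complex. It was at 13.0 and 14.0 CPM in CD41/CD9-negative cells, 17.4 and 15.4 CPM in CD34bright, and 15.4 and 16.5 CPM in CD48bright. Its highest and its lowest library were both of CD48dim, at 19.7 and 9.89 CPM. Ndufs1, the largest subunit of the electron-carrying arm, was at 87.4 and 152 CPM in CD41/CD9-negative cells, 114 and 84.8 CPM in CD34bright, 132 and 108 CPM in CD48bright, and 67.6 and 24.99 CPM in CD48dim. It was singled out after its values were seen, since both CD48dim libraries lay below the other 6: its log2 fold change in CD48bright against CD48dim was 1.37 ± 0.490, with an edgeR adjusted p of 0.26. It was 0.83 without CD48dim replicate 2 and 2.27 without CD48dim replicate 1. Without the filter on low counts edgeR called this difference (adjusted p 0.0396), in a comparison that then called 3.18% of all genes. That fit also called Ndufs1 in CD41/CD9-negative cells against CD48dim (edgeR adjusted p 0.0229), against 6.44% of all genes. Ndufc2, a membrane-arm subunit, showed the same order, at 39.2 and 21.4 CPM in CD48dim and 52.1 to 85.1 CPM in the other 6 libraries, with a log2 fold change of 1.06 ± 0.398 and an edgeR adjusted p of 0.277. It was 0.69 without CD48dim replicate 2 and 1.57 without CD48dim replicate 1.

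Other complex I genes had their extremes inside CD48dim. Ndufa8 was at 12.7 and 13.2 CPM in CD41/CD9-negative cells, 26.1 and 14.0 CPM in CD34bright, 21.4 and 16.9 CPM in CD48bright, and 38.5 and 1.92 CPM in CD48dim, so that its highest and its lowest library were of the same population. Ndufb9 had its highest library in CD48dim replicate 1 (108 CPM) and its lowest in CD48dim replicate 2 (17.6 CPM). Ndufv3 ran from 16.4 to 46.2 CPM and Ndufs4 from 18.9 to 51.1 CPM, both highest in CD48dim replicate 1. Ndufaf7, an arginine methyltransferase needed to assemble the complex, ran the other way, at 13.6 and 69.3 CPM in CD48dim, against 15.5 to 33.0 CPM elsewhere. The 7 assembly genes together had 105 and 148 CPM in CD48dim. The assembly genes of the highest mean TPM were Ndufaf2, at 1.51 to 17.5 CPM, and Ndufaf3, at 7.96 to 26.7 CPM, and both were lowest in CD48dim replicate 2. The log2 fold change of Ndufaf7 in CD48bright against CD48dim was -1.10 ± 0.673, with an edgeR adjusted p of 0.487. It turned to 0.51 without CD48dim replicate 2, and was -1.83 without CD48dim replicate 1. The level of Ndufs5 is uncertain: the deposited posterior SD of its count reached 41.8% of the count.

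Complex II, which is also an enzyme of the citrate cycle, has 4 members. Sdha, the flavoprotein, was at 239.7 and 199 CPM in CD41/CD9-negative cells, 331 and 251 CPM in CD34bright, 348 and 242 CPM in CD48bright, and 241 and 183 CPM in CD48dim. Sdhb, the iron-sulfur subunit, ran from 18.1 to 51.5 CPM over the 8 libraries, Sdhc from 47.2 to 102 CPM and Sdhd from 54.9 to 171 CPM, the last 2 being the membrane anchors. Sdhc and Sdhd were lowest in CD48dim replicate 1, and Sdha and Sdhb in CD48dim replicate 2. Their sum was 419 and 432 CPM in CD41/CD9-negative cells, 649.9 and 463 CPM in CD34bright, 579.7 and 449.8 CPM in CD48bright, and 379 and 369 CPM in CD48dim. The CD48dim libraries were close to each other in this sum and both lay below the other 6. The log2 fold changes of the 4 genes in CD48bright against CD48dim were 0.48 for Sdha, 0.41 for Sdhb, 0.48 for Sdhc and 0.42 for Sdhd, with edgeR adjusted p between 0.547 and 0.756.

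In complex III, Uqcrh, the hinge protein of cytochrome c1, was at 90.2 and 52.2 CPM in CD41/CD9-negative cells, 129.9 and 64.7 CPM in CD34bright, 108 and 75.2 CPM in CD48bright, and 114 and 30.1 CPM in CD48dim. Uqcr10, a small subunit, ran from 44.2 to 86.8 CPM in the 7 libraries other than CD48dim replicate 2, where it was at 10.02 CPM. None of the 8 complex III genes was called by edgeR in any comparison, nor by DESeq2 or limma-voom. Unadjusted, 1 of them (Uqcrfs1, the Rieske iron-sulfur protein) had p below 0.05. That was in CD34bright against the CD34dim CD41+ CD9+ mean and against CD48dim, where 8.31% and 19.0% of all genes had such a p. The sum of the 8 genes was 473 and 424 CPM in CD41/CD9-negative cells and 719 and 500.3 CPM in CD34bright. It was 601 and 446 CPM in CD48bright, and 594 and 198 CPM in CD48dim.

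**Figure D3:**
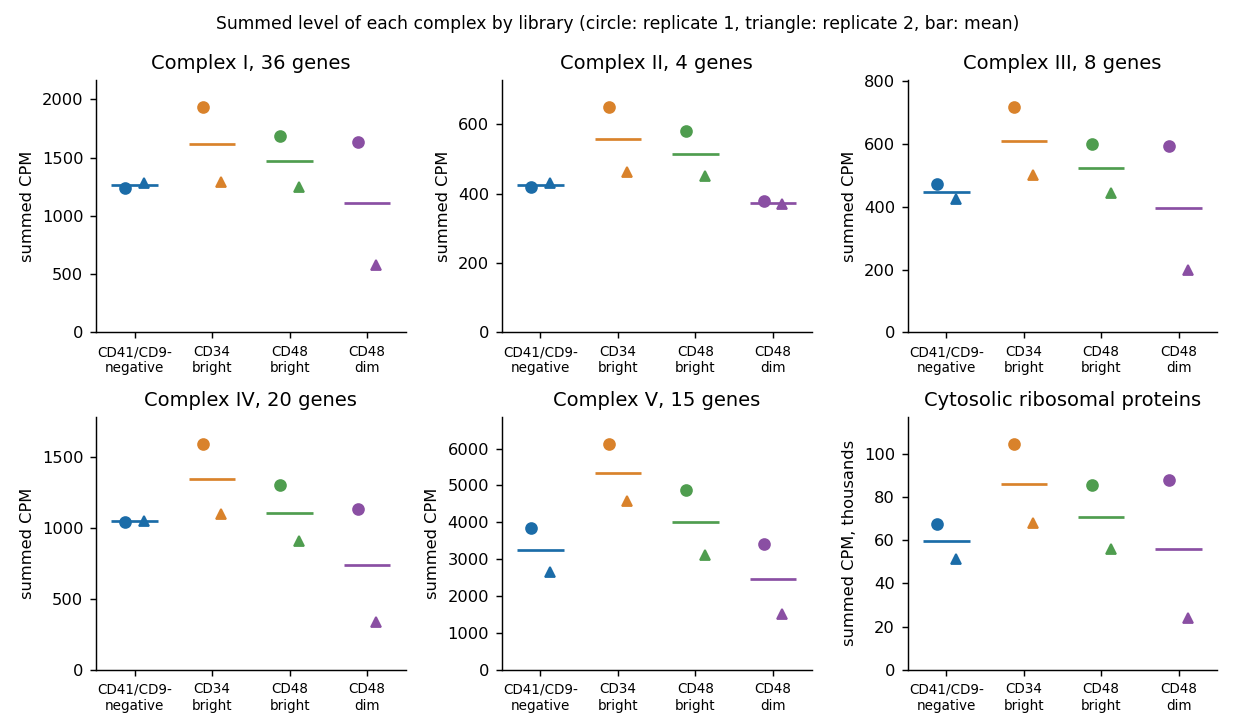
Summed CPM of the members of each complex, and of cytosolic ribosomal proteins for comparison, by sorted population. Circles are replicate 1, triangles replicate 2 and bars the mean of the 2. CD34bright replicate 1 is highest in all 6 panels, CD48dim replicate 2 is lowest in all 6, and in complex II the CD48dim libraries lie close together at 379 and 369 CPM.

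Complexes I, IV and V had the same highest and the same lowest library. Complex I summed to 1239.6 and 1285 CPM in CD41/CD9-negative cells, 1936 and 1291 CPM in CD34bright, 1687 and 1248 CPM in CD48bright, and 1637 and 582 CPM in CD48dim. Complex IV summed to 1043 and 1054 CPM in CD41/CD9-negative cells, 1594 and 1103 CPM in CD34bright, 1308 and 909.6 CPM in CD48bright, and 1137 and 339 CPM in CD48dim. Complex V summed to 3844 and 2655 CPM in CD41/CD9-negative cells, 6119 and 4576 CPM in CD34bright, 4888 and 3119 CPM in CD48bright, and 3413 and 1499 CPM in CD48dim. In complexes I and IV the gap between the CD48dim libraries exceeded the gap between any of the population means. All 92 members together took 0.719% and 0.601% of the scaled total in CD41/CD9-negative cells, 1.124% and 0.814% in CD34bright, 0.926% and 0.632% in CD48bright, and 0.731% and 0.318% in CD48dim.

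CD48dim replicate 2 set the low end. Of the 87 tested members, 71 (81.6%) were lowest in that library, against 30.5% of all tested genes, and 51 (58.6%) were highest in CD34bright replicate 1, against 10.8%. The median log2 difference of CD48dim replicate 2 minus replicate 1 was -1.42 over the members and -0.135 over all tested genes. It ran with transcript length among all genes: for effective lengths under 500 bases the median was -1.85 over 47 members and -1.30 over 497 genes, for 500 to 1000 bases it was -1.08 over 18 members and -0.974 over 1205 genes, and above 1000 bases it was -1.30 over 22 members and -0.008 over 11475 genes. The steepest were Ndufa4 at -4.30, Ndufa8 at -4.01 and Cox5a at -3.56, while Atp5h differed by 1.14 and Ndufaf7 by 2.31 the other way. The members moved with the cytosolic ribosomal proteins: their summed CPM was 10.6% and 11.7% of that of the ribosomal proteins in CD41/CD9-negative cells, 10.8% and 12.01% in CD34bright, 10.8% and 11.3% in CD48bright, and 8.31% and 13.3% in CD48dim. The part of RNA quality or of the amplification in these levels was not tested.

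**Figure D4:**
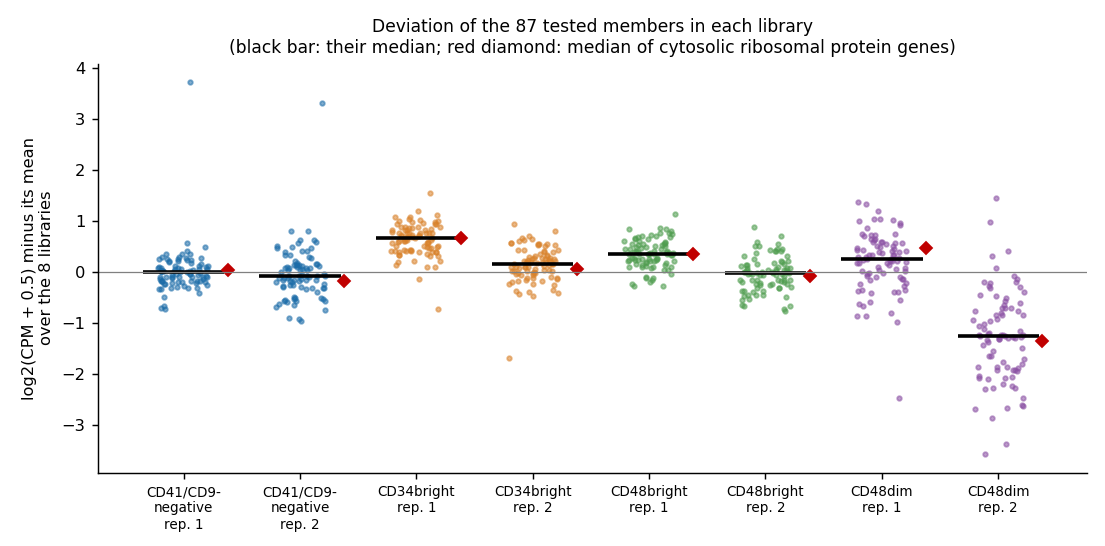
Deviation of each of the 87 tested members from its own mean over the 8 libraries, as log2(CPM + 0.5), with the members' median as a black bar and the median of 86 cytosolic ribosomal protein genes as a red diamond. In CD48dim replicate 2 both medians are the lowest (-1.25 for the members and -1.35 for the ribosomal proteins), and in CD34bright replicate 1 they are the highest, at 0.66 and 0.68.

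In the comparison of CD41/CD9-negative cells with the CD34dim CD41+ CD9+ mean, which asks what goes with the CD41 and CD9 gates, 1 of 87 members rose (Cox6a2) and 0 fell, against 2.44% of all tested genes called, 1.53% higher and 0.911% lower. The median log2 fold change of the members was 0.01, with 44 of 87 positive, against -0.02 over all tested genes. By complex the medians were -0.15 for complex I, 0.11 for complex II, 0.06 for complex III, 0.25 for complex IV and -0.04 for complex V. The median over members had no stable sign: it was -0.03 with upper-quartile scaling and -0.04 with library totals only, -0.20 without CD48dim replicate 2 and 0.49 without CD48dim replicate 1. After Cox6a2 the largest log2 fold changes were those of Cox4i2 (1.78 ± 1.51) and Atp5g2 (0.84 ± 0.392), and the smallest were those of Cox6b2 (-0.81 ± 0.768), Ndufv3 (-0.70 ± 0.431) and Ndufa8 (-0.60 ± 0.868). None of these 5 passed, with edgeR adjusted p from 0.405 to 0.87. Without CD48dim replicate 1 the comparison called 14 members and 12.3% of all genes, and without CD41/CD9-negative replicate 1 it called 0 members and 0.205%.

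In the comparison of CD48bright with CD48dim, which asks what goes with CD48 among CD34dim CD41+ CD9+ cells, edgeR called 0 of 87 members, against 0.387% of all tested genes. Unadjusted, 7 had p below 0.05: Atp5c1, Atp5g2, Cox4i2, Cox6a2, Ndufc2, Ndufs1 and Ndufs5, all with a positive log2 fold change. Over all tested genes 14.6% had such a p. With the replicate block edgeR called Cox6a2 (adjusted p 0.0482), against 1.35% of all genes. DESeq2 called Atp5g2 and Cox6a2, against 5.76% of all genes, and limma-voom called 0. The median log2 fold change of the members was 0.43, with 74 of 87 positive, against -0.03 over all tested genes. It was 0.35 for complex I, 0.45 for complex II, 0.42 for complex III, 0.57 for complex IV and 0.60 for complex V. That median rested on CD48dim replicate 2: without it the median was -0.03, with 41 of 87 positive and 1 member called (Cox6a2), against 2.92% of all genes. Without CD48dim replicate 1 it was 1.502, with 43 members called, against 23.3% of all genes, and without CD48bright replicate 1 it was 0.20. By complex, the medians without CD48dim replicate 2 were -0.25 for complex I, -0.11 for complex III, 0.001 for complex IV and 0.04 for complex V. The smallest log2 fold changes were those of Ndufaf7, Atp5h and Ndufb9 (-0.65 ± 0.754, edgeR adjusted p 0.737). Without CD48dim replicate 2 the median of the 4 complex II genes was 0.49. Sdhb did not share that rise, since its level in CD48dim replicate 1 lay between those of the CD48bright libraries.

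In the comparison of CD34bright with the CD34dim CD41+ CD9+ mean, which asks what goes with CD34 among CD41+ CD9+ cells, edgeR called 0 of 87 members and 0% of all tested genes. Unadjusted, 7 members had p below 0.05: Atp5c1, Atp5g1, Atp5g2, Atp5j, Cox4i2, Ndufab1 and Uqcrfs1, against 8.31% of all tested genes. DESeq2 called Atp5g1 alone, against 1.83% of all genes, and limma-voom called 0. The median log2 fold change of the members was 0.44, with 83 of 87 positive, against -0.04 over all tested genes, and by complex it was 0.31 for complex I, 0.34 for complex II, 0.66 for complex III, 0.59 for complex IV and 0.69 for complex V. The median was 0.21 with 62 positive without CD48dim replicate 2, and 1.01 without CD48dim replicate 1, where 32 members and 11.8% of all genes were called. It was 0.24 with 58 positive without CD34bright replicate 1 and 0.68 without CD34bright replicate 2. With library totals only, the median over all genes moved to -0.17 and that of the members to 0.31. The smallest log2 fold changes were those of Ndufs4 (-0.22 ± 0.435), Ndufv3 (-0.15 ± 0.420) and Atp5h (-0.07 ± 0.391). The direct comparison of CD34bright with CD48bright, which holds no CD48dim library, also called 0 members and 0% of all genes, with a median of 0.23 and 76 of 87 members positive. That median rested on single libraries: it was -0.01 with 43 positive without CD34bright replicate 1, and 0.08 with 50 positive without CD48bright replicate 2. Unadjusted, 1 member (Atp5g1) had p below 0.05 there, and DESeq2 and limma-voom called 0. The comparisons with the CD34dim CD41+ CD9+ mean share their CD48bright and CD48dim libraries.

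**Figure D5:**
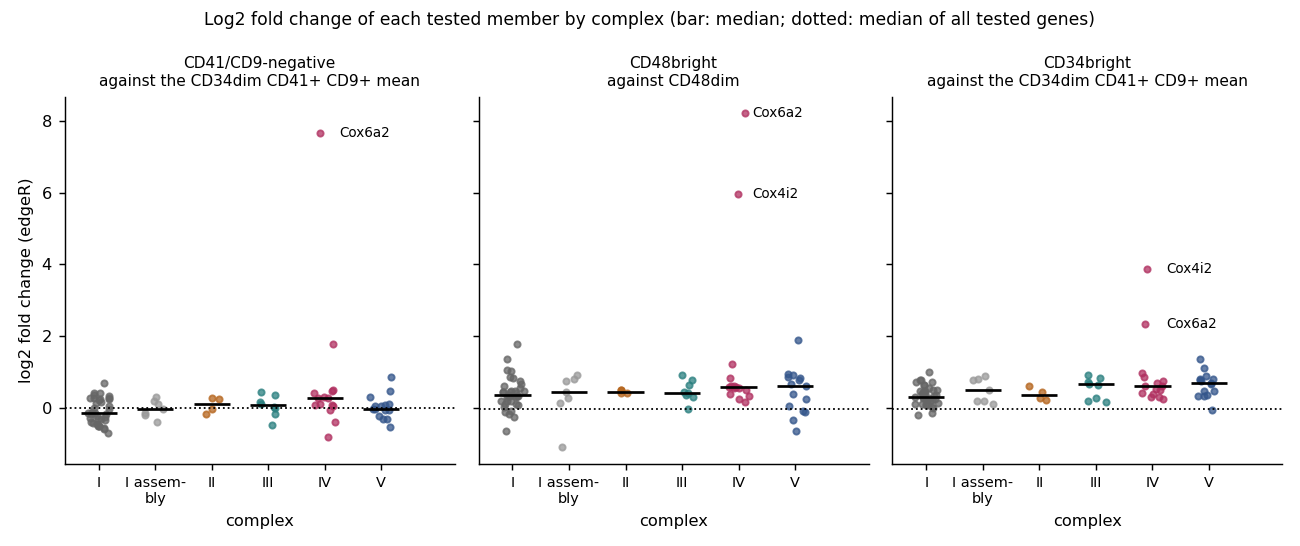
Log2 fold change of each tested member by complex in the 3 comparisons, with a bar at each complex's median and a dotted line at the median of all tested genes. Cox6a2 stands at 7.66 in CD41/CD9-negative cells against the CD34dim CD41+ CD9+ mean, where the medians lie from -0.15 to 0.25, while the medians of all 5 complexes are above 0 in the other comparisons, in which edgeR called no member.

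With Cox6a2 and Cox4i2 set at their lower bounds against CD48dim, the members' medians of the 3 comparisons were -0.01, 0.43 and 0.42. Across the rest of the pathway, few genes passed. Of 42 other assembly and cytochrome c genes, 40 were tested and edgeR called 0 in any comparison, with up to 5 at an unadjusted p below 0.05. In the comparisons with 5 such genes, 14.6% to 19.5% of all genes had such a p. DESeq2 called 3 of the 40 in the test of any difference, against 13.0% of all genes, and limma-voom called 0. The 3 were Cycs, cytochrome c itself, and the assembly genes Lyrm7 and Taco1. Of 16 citrate cycle genes, edgeR called 1, in a comparison that called 4.02% of all genes: Pdha1, the catalytic subunit of pyruvate dehydrogenase, which links glycolysis to the cycle. Pdha1 was at 145 and 173 CPM in CD41/CD9-negative cells, 178 and 139.6 CPM in CD34bright, 184 and 151 CPM in CD48bright, and 58.4 and 53.3 CPM in CD48dim. It rose in CD41/CD9-negative cells against CD48dim by a log2 fold change of 1.51 ± 0.312, with an edgeR adjusted p of 0.0322, and both CD48dim libraries lay below the other 6. The call held without either CD48dim library and was lost without any one of the other 6, at log2 fold changes of 1.38 to 1.66. DESeq2 and limma-voom called Pdha1 there too. In the test of any difference DESeq2 called Pdha1, against 13.0% of all genes. It also called both Pdha1 and Idh3a, a citrate cycle dehydrogenase subunit, in CD48bright and in CD34bright against CD48dim. In those comparisons it called 5.76% and 9.77% of all genes.

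Of 18 glycolysis genes, edgeR called 1: Hk1, a hexokinase that carries out the first step and binds mitochondria. Hk1 was at 39.6 and 48.6 CPM in CD41/CD9-negative cells, 114 and 111 CPM in CD34bright, 103 and 131 CPM in CD48bright, and 160.4 and 129 CPM in CD48dim. It fell in CD41/CD9-negative cells against the CD34dim CD41+ CD9+ mean by 1.56 ± 0.290 on the log2 scale (edgeR adjusted p 0.0263), in a comparison that called 2.44% of all genes, and both libraries lay below the other 6. It also fell against CD48dim, by 1.72 ± 0.319 (edgeR adjusted p 0.0211). The first call held without either CD48dim library and was lost without any one of the other 6, at log2 fold changes of -1.72 to -1.41. DESeq2 and limma-voom called Hk1 in both comparisons. DESeq2 also called Pfkm in CD41/CD9-negative cells against CD48dim, where it called 11.7% of all genes. It called Pgam1, Gapdh and Pfkl in other comparisons, in which it called 1.83% to 9.77% of all genes. Against CD34bright the glycolysis genes had a median log2 fold change of -0.84 in CD41/CD9-negative cells, with 1 of 18 positive and 0 called. Unadjusted, 3 of them had p below 0.05 there, against 9.91% of all genes. DESeq2 called Hk1 and Pfkl, against 4.74% of all genes, and limma-voom called 0. The 77 mitochondrial ribosomal protein genes had medians like those of the respiratory chain: 0.04 in CD41/CD9-negative cells against the CD34dim CD41+ CD9+ mean, 0.45 in CD48bright against CD48dim and 0.39 in CD34bright against the CD34dim CD41+ CD9+ mean, with 0, 7 and 7 genes at an unadjusted p below 0.05 and 0 called by edgeR in each. DESeq2 called 1 of them (Mrps14) in each of the last 2 comparisons, against 5.76% and 1.83% of all genes. In all 3 comparisons limma-voom called 0 of them. For the 86 tested cytosolic ribosomal protein genes the same medians were -0.04, 0.35 and 0.41, with 0 called and 1, 1 and 2 at an unadjusted p below 0.05. The 18 tested regulators of mitochondrial biogenesis had medians of 0.02, -0.32 and 0.09, with 0 called and 1, 2 and 0 at an unadjusted p below 0.05. Over all tested genes, 13.2%, 14.6% and 8.31% had such a p in the same 3 comparisons. DESeq2 and limma-voom called 0 of the cytosolic ribosomal protein genes and of these regulators in the 3 comparisons.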

How the data were processed

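Bulk RNA-seq of 8 libraries was used, grouped by the sort gates in the labels. Cluster numbers in the sample titles, the design text and the file names differ and were not used. Per the labels' protocols, the Ovation RNA-Seq System V2 made cDNA from 5 ng of total RNA, 1 ug of it entered a TruSeq kit, and the libraries are unstranded. Reads of bases shared by overlapping genes therefore cannot be told apart by strand. The spans of 17 members, introns included, overlap another gene. The deposited posterior SD of the count was 0% of the count for Cox6a2, Cox4i2 and Cox7a2. The submitters' processing notes name STAR 2.7.2a, RSEM 1.3.2, edgeR 3.30.3 and mm10, and no settings were at hand. The deposited values are expected counts per gene, TPM and effective lengths, per the file headers. Up to 2.20% of a library's expected counts were not whole, and all were rounded. Of 24411 genes, 18488 had a count and 13177 passed filterByExpr by population.

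After TMM scaling, genes were tested two-sided with the quasi-likelihood F-test of edgeR 4.0.16 (R 4.3.3). A single model held a mean for each population (4 residual and 5.46 prior degrees of freedom, biological coefficient of variation 49.8%), and p-values were Benjamini-Hochberg adjusted over all tested genes. The SE is the log2 fold change divided by the square root of F. The test was checked on simulated counts. The labels do not say whether a population's libraries are from different mice, so p-values measure only the spread between the libraries, and that spread may be technical. The replicate numbers of the titles were checked for pairing: the difference between replicates correlated at 0.142 to 0.274 over all genes in all 6 pairs of populations, so results of a fit with the number as a block stand beside those it moves. The pairing comes from this check and not from a label. Fits with other scalings, no filter, DESeq2 1.42.0, limma-voom 3.58.1, fewer libraries or each library left out were also run.

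The members and all lists were chosen with earlier results of these data known. The rule named called members, alternative isoforms with their partners, the subunit c and complex II genes, the 2 members of highest mean TPM in each complex, and the 3 largest and 3 smallest log2 fold changes in each comparison. Members outside it were named where a count was 7 or lower or a range was singled out after the values were seen. All 92 members matched RefSeq, 3 of them through a transcript accession. Cytosolic ribosomal proteins were taken by symbol, without names holding -ps, a rule that also takes in Rps19bp1, a binding protein.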

Additional observations from a re-analysis of the deposited data

How the results depend on the processing

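Scaling by RLE, upper quartile or library totals moved no count of called members by more than 1.5 times, and no called change of a named member reversed under any alternative. In the test of any difference among the 4 populations, with 1 member called, no filter on low counts gave 4, DESeq2 4 and limma-voom 0, and leaving out each library in turn gave 0 to 36. For CD41/CD9-negative cells against the CD34dim CD41+ CD9+ mean, leaving out a library gave 0 to 14 members against 1. For CD48bright against CD48dim, no filter gave 3 and DESeq2 2 against 0, and leaving out a library 0 to 43. For CD34bright against the CD34dim CD41+ CD9+ mean, no filter gave 1 and DESeq2 1 against 0, and leaving out a library 0 to 32. Summed over the 6 pairs, no filter gave 16, DESeq2 12 and fits of only the libraries compared 5, against 2, and leaving out a library 1 to 138. In each case the highest count came without CD48dim replicate 1, in a fit whose lone CD48dim library is assumed to vary like the other groups. Over all genes, the test of any difference called 322, against 1607 with no filter, 1718 by DESeq2, 141 by limma-voom and 32 to 3399 with a library left out. CD41/CD9-negative cells against the CD34dim CD41+ CD9+ mean had 322, against 778 with no filter, 901 by DESeq2, 179 with only the libraries compared and 29 to 1692 with a library left out. CD48bright against CD48dim had 51, against 588 with no filter, 759 by DESeq2, 5 by limma-voom, 33 with upper-quartile scaling, 0 with only the libraries compared and 4 to 3211 with a library left out. CD34bright against the CD34dim CD41+ CD9+ mean had 0, against 206 with no filter, 241 by DESeq2 and 0 to 1621 with a library left out. The cause of these shifts was not tested.

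The replicate block, which adds the replicate number of the titles to the model, called 2 members in the test of any difference (Atp5g1 and Cox6a2), 1 in CD48bright against CD48dim (Cox6a2) and 8 over the 6 pairs. Over all genes the block gave 764, 562 and 178 calls in the test of any difference, in CD41/CD9-negative cells against the CD34dim CD41+ CD9+ mean and in CD48bright against CD48dim. In single pairs of populations the block called 0% to 7.32% of all genes, against 0% to 4.02% without it. No filter called 0.211% to 6.44% of all genes per pair, and DESeq2 0.281% to 11.7%. Fits of only the libraries compared called 0% to 8.70% per pair. The calls of Cox6a2, Pdha1 and Hk1 were kept under the block.

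Library totals went down to 7237587 counts, and the power to call a given change of a member was not computed.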

Other observations

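Markers of further cell types were read as summed CPM. The 5 T and NK cell markers of the tables summed to 69.5 and 50.8 CPM in CD41/CD9-negative cells and 339.8 and 269 CPM in CD34bright. The sum was 407 and 253 CPM in CD48bright, and 261 and 66.9 CPM in CD48dim. Nearly all of it was Nkg7, at 62.2 and 42.7 CPM in CD41/CD9-negative cells and 65.0 to 400 CPM elsewhere. Cd3e, Cd3g, Cd8a and Klrb1c were at 5.12 CPM or less in all libraries. Cd8a went the other way, at 1.89 and 3.55 CPM in CD41/CD9-negative cells against 0 to 0.274 CPM elsewhere. The 6 macrophage markers summed to 91.1 and 65.6 CPM in CD41/CD9-negative cells, against 45.0 to 72.6 CPM in the other 6 libraries. Most of that sum was Cd68, at 82.1 and 63.7 CPM, against 15.4 to 41.4 CPM elsewhere. Vcam1 went the other way, at 0.550 and 0.484 CPM against 1.10 to 39.9 CPM. So did C1qb, at 0.236 and 0 CPM against 0.548 to 4.83 CPM. Adgre1, C1qa and C1qc overlapped between the populations. Rn45s, the ribosomal RNA precursor, ran from 7850 to 105872 CPM, with 44562 CPM in CD48dim replicate 1 and the lowest value in CD48dim replicate 2. These lists contain no respiratory chain gene.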
